A study of Rattus norvegicus with 12 samples.

Results

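The hematoma that fills a large femoral defect was compared with pieces of intact femur removed at surgery. The comparison takes 6 of the 12 RNA sequencing libraries of a rat fracture study, chosen by their labels: 3 labelled nonunion and 3 labelled preOP. All were made from male SAS Fischer rats weighing 200 to 225 g. The nonunion libraries hold hematoma from a 5.0 mm defect, the model the study describes as not healing. The preOP libraries hold the piece of healthy femur cut out when defects were made, and their treatment is given as none. The other 6 libraries are hematomas of 1.5 mm defects (delayed healing) and 0.5 mm defects (normal healing), which enter here through the shared estimate of spread and, for the delayed group, through 1 direct comparison. The time of hematoma harvest, the animal behind each library and whether a femur piece and a hematoma came from the same rat are not stated in the labels used here. The p-values therefore set each difference against the spread between libraries of a group, estimated from all 12, whose animals are not known. Tissue, surgery and time cannot be told apart in this contrast.

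A fracture hematoma is the blood clot that forms between bone ends, which inflammatory cells, fibroblasts and vessels then enter. In healing fractures it is replaced by cartilage and woven bone. An intact rat femur piece is mineralized bone with osteoblasts and osteocytes, and it also holds red marrow, where erythrocytes, granulocytes, platelets and B lymphocytes are made.

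The 6 libraries held 16808993 to 24325162 estimated reads, and 11449 to 12450 features in each had at least 10 reads. Globin genes took 15.679%, 14.665% and 22.758% of reads in preOP 1, 2 and 3, and 0.163%, 0.031% and 0.22% in nonunion 1, 2 and 3. Library nonunion 2 stood apart. Ribosomal RNA took 72.241% of its reads, against at most 1.747% in the other 11 libraries, which left 6752346 reads outside named ribosomal RNA. The largest feature among these, a transcript matched to no gene symbol, took 4.14% of all reads of nonunion 2. The log2 levels of nonunion 2 correlated across genes with nonunion 1 and 3 at Pearson's r of 0.817 and 0.846. The value was 0.967 between nonunion 1 and 3 and 0.972 to 0.991 among the preOP libraries. The summed level of 12 adipocyte genes was 19080 CPM in nonunion 2. In nonunion 1 and 3 it was 662.4 and 574.8 CPM, and in preOP 1049 to 1511 CPM. CPM are counts of estimated reads per 1e6 reads of the library after TMM scaling. The part of ribosomal RNA and of adipocyte RNA in the results below was not tested, so values are given with and without nonunion 2 where it decides them.

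**Figure D1:**
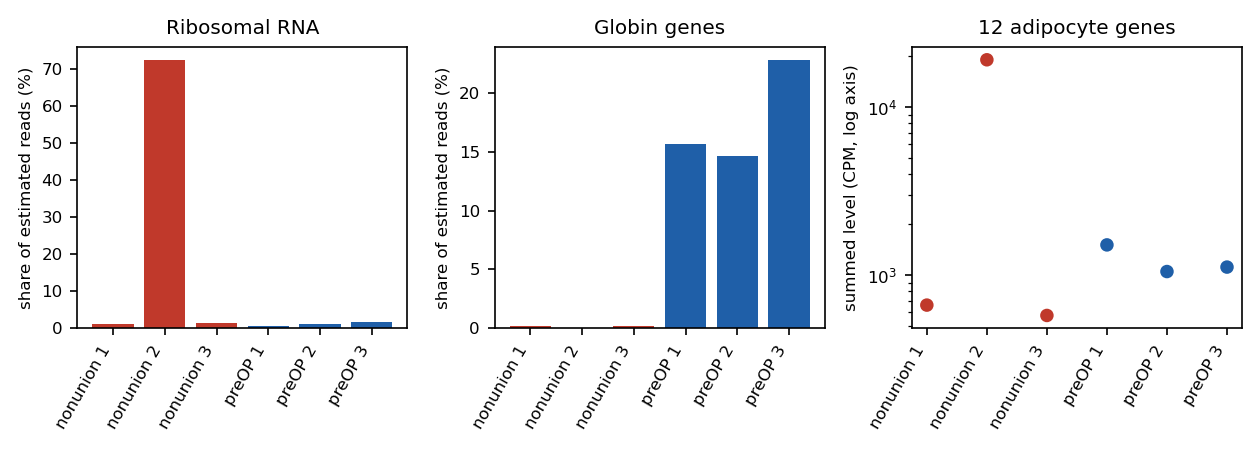
Share of estimated reads on ribosomal RNA (left, percent) and on globin genes (middle, percent), and the summed level of 12 adipocyte genes (right, CPM on a log axis), in each nonunion (red) and preOP (blue) library. Nonunion 2 reaches 72.241% ribosomal RNA and 19080 CPM of adipocyte genes, and the 3 preOP libraries carry 14.665% to 22.758% globin reads.

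Of 12846 genes tested with edgeR, 3648 (28.4%) differed between nonunion hematoma and preOP femur at an adjusted p below 0.05. Of these, 1736 (13.5% of the genes tested) were higher in nonunion and 1912 (14.9%) were lower. A difference of at least 2 on the log2 scale was found for 1616 called genes, 735 higher and 881 lower. Of the called genes, 3527 had no overlap between the 3 nonunion and the 3 preOP libraries. Over all genes tested, 21.0% had every nonunion library above every preOP library, and 28.0% had every nonunion library below. Because the groups differ in both tissue and surgery, the shares just given are the background for each gene group below. The median log2 fold change of all genes, always given as nonunion minus preOP, was -0.002. It was 0.084 with DESeq2 size factors and 0.109 with ribosomal RNA removed before scaling, so small differences shift by about that much with the scaling. Without nonunion 2, edgeR called 4221 genes, 2274 higher (17.4%) and 1947 lower (14.9%). In both sets 3126 genes were called the same way, and 0 were called in opposite directions. Without preOP 1, 2 or 3 the number of calls was 2425, 2334 and 2415. Each gene named as risen or fallen kept its direction whichever of the 6 libraries was left out, and those that lost their call are given with the value.

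**Figure D2:**
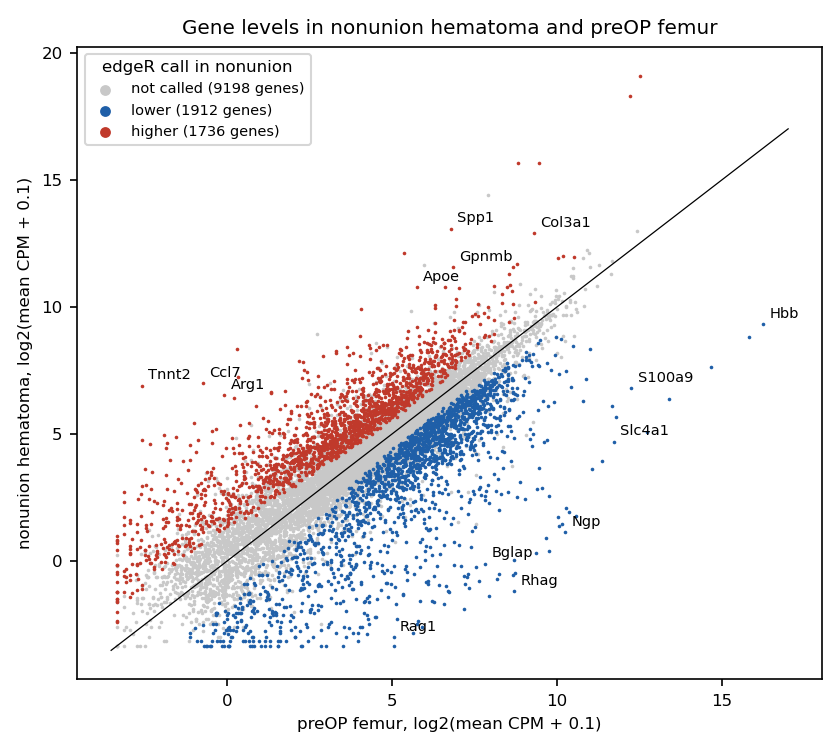
Mean level of each of 12846 genes in preOP femur (x axis) and nonunion hematoma (y axis), both as log2(mean CPM + 0.1) over 3 libraries. Red points are the 1736 genes called higher, blue points the 1912 called lower, and the line marks equal levels. Hemoglobin, red cell and granule genes lie below the line, and Spp1, Col3a1, Ccl7 and Arg1 lie above it.

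Genes of red cell production were far lower in the hematoma. All 19 tested erythroid genes fell, with a median log2 fold change of -8.20, as did 7 of 7 tested globin genes (median -6.98) and 11 of 11 genes of heme synthesis and its transport (median -3.69). Leaving out 1 library at a time left 18 to 19, 7 and 10 to 11 of them called. In bulk tissue, fewer cells of a type and less RNA per cell cannot be told apart, here and in every group below. Beta-globin (Hbb) stood at 78300, 64100 and 90500 CPM in preOP 1 to 3 and at 632, 459 and 846 CPM in nonunion 1 to 3, a log2 fold change of -6.91 ± 0.99 (SE, adjusted p = 0.00076). No nonunion library came within reach of the lowest preOP library. The globin genes have near-identical copies, among which reads may be split uncertainly, but every tested copy fell. Alas2, the erythroid first enzyme of heme synthesis, fell from 1900, 1790 and 2700 CPM to 10.6, 11.1 and 15.6 CPM (log2 fold change -7.42 ± 1.17, adjusted p = 0.0013). Slc4a1, the band 3 anion exchanger of the red cell membrane, fell from 2550, 2820 and 4800 CPM to 18.1, 43.6 and 16.3 CPM (log2 fold change -7.03, adjusted p = 0.00072). The erythroid transcription factors fell as well (log2 fold change -8.20 for Gata1 and -8.37 for Klf1). Klf1 was at 122, 124 and 233 CPM in preOP and at 0.119, 1.23 and 0.455 CPM in nonunion. The ammonium channel gene Rhag fell by 10.53 on the log2 scale and carbonic anhydrase Car1 fell by 9.62, both among the 12 largest falls of called genes without overlap between the groups and with a mean of at least 5 CPM in preOP. The transferrin receptor gene Tfrc, which other dividing cells also use, fell by 4.48.

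Megakaryocyte and platelet genes fell in 7 of 7 cases (6 or 7 with 1 library left out), with a median of -8.52, or -8.33 with the 1 gene that had no nonunion reads set at its bound. Gp1bb, a chain of the platelet von Willebrand factor receptor, was at 23.9, 24.7 and 52.1 CPM in preOP and had no read in any nonunion library. It was at least 143-fold lower against a floor of 3 reads per library (adjusted p = 0.023, a call lost without nonunion 1, nonunion 3 or preOP 3, with adjusted p up to 0.057). Ppbp, the platelet basic protein precursor, fell from 434, 440 and 340 CPM to 0.475, 1.08 and 0.207 CPM (log2 fold change -9.66 ± 1.15, adjusted p = 0.00032). The platelet chemokine Pf4 fell least in this list, by 2.58, and still stood at 57.3, 66 and 65.6 CPM in nonunion. The summed level of the list was 60.74 to 69.62 CPM in nonunion, nearly all of it Pf4, against 1178 to 1375 CPM in preOP. A clot contains shed platelets, and their part in the Pf4 level was not tested.

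Granulocyte genes were lower in the hematoma. Genes of neutrophil granules, which are made in marrow precursors, fell in 7 of 10 cases with a median of -7.11. Ngp, the neutrophilic granule protein, fell from 1240, 1300 and 1090 CPM to 1.34, 3.55 and 1.45 CPM (log2 fold change -9.23 ± 1.36, adjusted p = 0.00089). The cathelicidin gene Camp fell by 8.74 and the defensin gene Np4 fell by 8.50, and all 10 genes were below preOP in every nonunion library. Of 13 genes of mature neutrophils, 6 fell and 7 were not called, with a median of -1.76. S100a9, a calprotectin subunit, was at 285, 23.1 and 28.5 CPM in nonunion against 5510, 4960 and 4200 CPM in preOP (log2 fold change -5.44, adjusted p = 0.011). Nonunion 1 held more S100a9 than the other nonunion libraries and less than any preOP library. Among eosinophil, basophil and mast cell genes 12 of 13 fell (9 to 12 with 1 library left out), with a median of -6.47, or -5.17 with the 1 gene lacking nonunion reads at its bound. Prg2, the eosinophil major basic protein, fell from 203, 220 and 172 CPM to 0.87, 0.308 and 0.29 CPM (log2 fold change -8.55, adjusted p = 0.0012). The basophil proteases Mcpt8 and Prss34 were among the same 12 largest falls, Mcpt8 by 9.48 on the log2 scale and Prss34 at least 48.7-fold with no nonunion read. The mast cell chymase Cma1 was at 0.158 and 0.248 CPM in nonunion 1 and 3 and at 21.7 CPM in nonunion 2, against 121 to 258 CPM in preOP. Its fall was -4.87 (adjusted p = 0.023) with all libraries and -9.76 without nonunion 2, and the adjusted p was 0.055 without preOP 1 and 0.052 without preOP 2.

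B lymphocyte genes fell in 10 of 15 cases (median -4.19, 8 to 13 with 1 library left out). Rag1, the recombinase that assembles antigen receptor genes, was at 40.5, 45.8 and 13.2 CPM in preOP and had 2 reads in all nonunion libraries together, a ratio of 973 with a 95% counting interval of 269 to 8040. Cd79b, a chain of the B cell receptor, was at 0.554 and 0.455 CPM in nonunion 1 and 3, at 11.4 CPM in nonunion 2 and at 51 to 93.1 CPM in preOP. Its log2 fold change was -4.36 (adjusted p = 0.019) and -7.10 without nonunion 2. T and NK lymphocyte genes were mixed, with 2 of 15 higher and 3 lower, and 0 to 2 and 1 to 5 with 1 library left out. Of all genes tested 13.5% were higher and 14.9% lower, so the counts with all libraries lay near that background. The higher count dropped without nonunion 1, nonunion 3, preOP 2 or preOP 3, and the lower count moved by over 1.5 times without any 1 nonunion library. Nkg7, a granule protein of killer cells, fell by 5.25, while the T cell receptor component Cd3e was at 1.23, 3.85 and 0.993 CPM in nonunion and 3.92 to 5.77 CPM in preOP and was not called (adjusted p = 0.31). Cd8a, which rat NK cells and macrophages can carry as well as T cells, was at 198 and 211 CPM in nonunion 1 and 3, at 12.3 CPM in nonunion 2 and at 11.8 to 16.3 CPM in preOP. Its rise was 3.36 (adjusted p = 0.013) and 4.06 without nonunion 2, and the adjusted p was 0.052 and 0.054 without preOP 2 and preOP 3.

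Of 7 genes of blood stem and progenitor cells, 5 fell (4 or 5 with 1 library left out). The log2 fold changes were -7.43 for Gfi1b, -6.09 for Gfi1 and -3.18 for Gata2, all transcription factors of blood formation. Cd34, which endothelial cells and fibroblasts also carry, went the other way, from 10.8 to 12.5 CPM in preOP to 24.4, 146 and 71 CPM in nonunion (log2 fold change 2.75, adjusted p = 0.023, but 0.053 without nonunion 2, 0.057 without preOP 1, 0.059 without preOP 2 and 0.082 without preOP 3). The marrow stroma that holds these progenitors fell in 6 of 9 genes (median -2.29, 4 to 7 with 1 library left out). Cxcl12, the chemokine that keeps blood stem cells in marrow, fell from 2720, 2340 and 1090 CPM to 75.5, 711 and 199 CPM (log2 fold change -2.64, adjusted p = 0.026, and 0.083 without nonunion 3, 0.069 without preOP 1 and 0.061 without preOP 2). The leptin receptor gene Lepr, a marker of marrow stroma, fell by 4.94 (adjusted p = 0.006) and stood at 0.712, 5.7 and 0.662 CPM in nonunion.

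Red cell genes are known targets of GATA1, whose short recognition sequence AGATAA was searched on both strands in the 250 bases before each gene's start. Of 9860 tested genes with a RefSeq promoter entry (build GRCr8), 6.31% held it. Among erythroid genes 5 of 13 with an entry held it (Epor, Rhd, Sptb, Trim10 and 1 of 2 starts of Hemgn), as did 0 of 7 globin genes and 2 of 9 genes of heme synthesis. Lists of other blood cells held it as well, with 4 of 11 for eosinophils and mast cells and 3 of 9 for mature neutrophils. The Epor promoter is shown because the gene, the erythropoietin receptor, fell by 5.10 and because it was picked for holding the letters. The capitals mark the match, which reads TTATCT on the gene's strand, at chr8:28770323-28770572, minus strand. A match is a description of these letters, not a tested site.
Epor: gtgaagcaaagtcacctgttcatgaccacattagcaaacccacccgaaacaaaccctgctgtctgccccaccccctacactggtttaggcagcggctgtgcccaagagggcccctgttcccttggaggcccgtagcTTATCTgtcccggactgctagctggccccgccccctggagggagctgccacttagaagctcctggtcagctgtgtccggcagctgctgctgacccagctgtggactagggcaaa

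**Figure D3:**
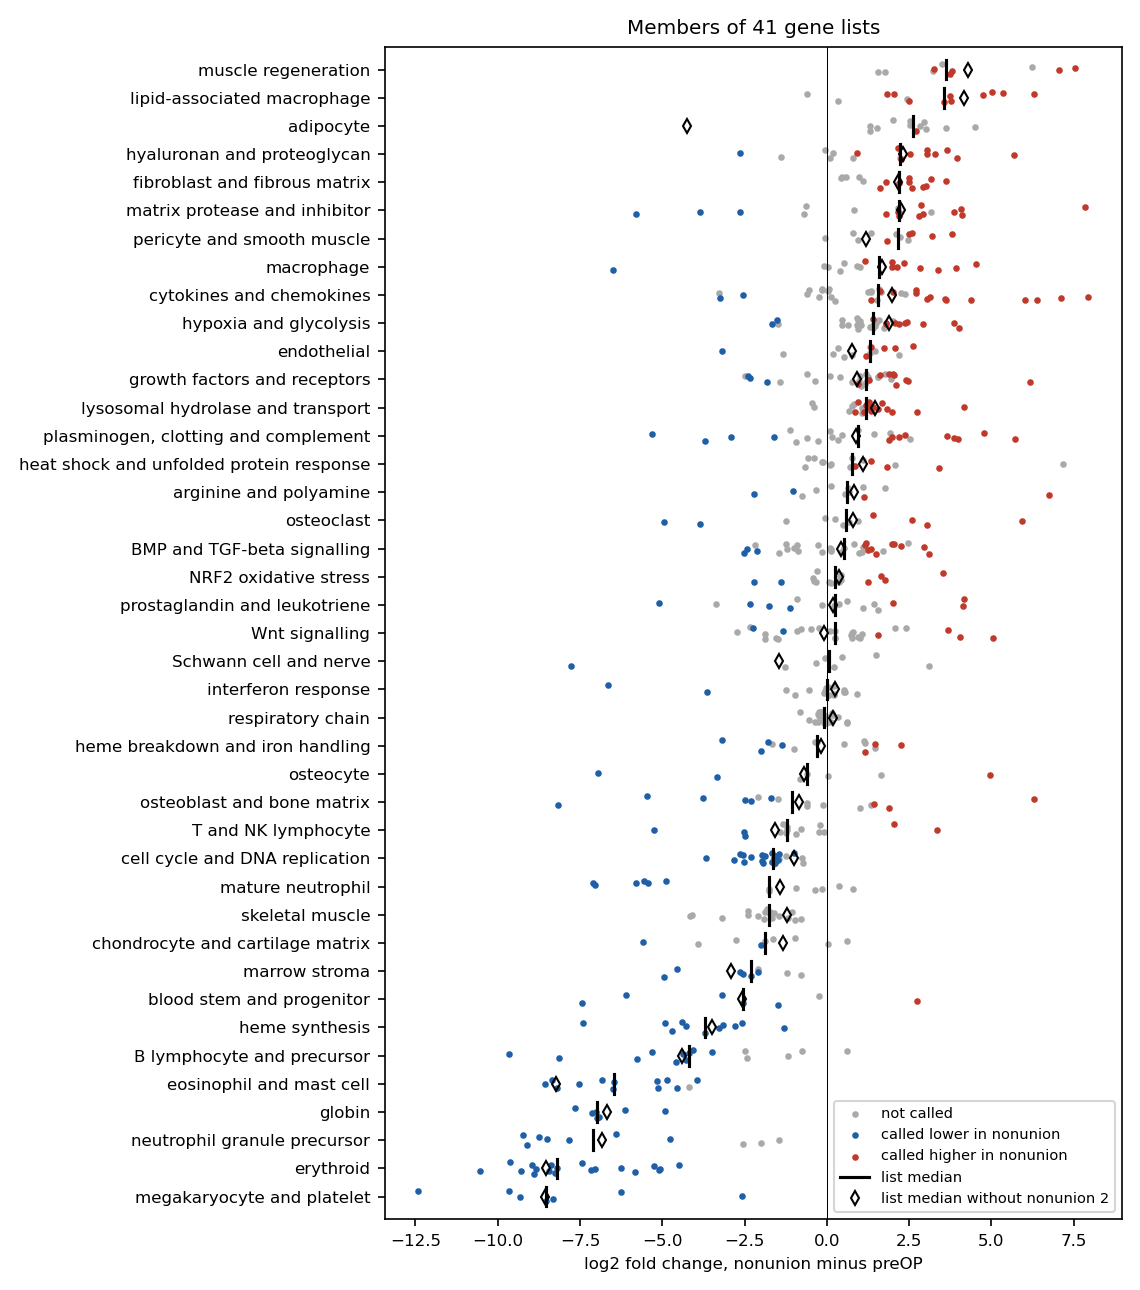
Log2 fold change (nonunion minus preOP) of every tested member of 41 gene lists. Each point is a gene (red called higher, blue called lower, grey not called), each bar the list median, and each diamond the median without nonunion 2. The megakaryocyte, erythroid, neutrophil granule, globin, eosinophil and mast cell, B lymphocyte and heme synthesis lists lie at the bottom with medians between -8.52 and -3.69, and the adipocyte list moves from 2.63 to -4.26 when nonunion 2 is left out.

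The bone genes did not move as 1 group. Of 16 osteoblast and bone matrix genes, 6 were lower in the hematoma (4 to 6 with 1 library left out), 3 were higher (1 to 3, and 1 without any 1 preOP library) and 7 were not called, with a median of -1.05. Of 7 osteocyte genes 2 fell (1 without nonunion 1 or nonunion 3), 1 rose and 4 were not called, with a median of -0.59. Osteocalcin (Bglap) fell from 232, 259 and 190 CPM to 0.712, 1.23 and 0.579 CPM, a log2 fold change of -8.18 ± 0.40 (adjusted p = 4.1e-06). Bone sialoprotein (Ibsp) fell from 213, 150 and 113 CPM to 4.9, 2.47 and 3.19 CPM (log2 fold change -5.47 ± 0.39, adjusted p = 3.3e-05). Alkaline phosphatase (Alpl), which frees phosphate for mineral, fell from 28.2, 35.2 and 61.8 CPM to 4.67, 2 and 2.36 CPM (log2 fold change -3.76 ± 0.50, adjusted p = 0.00053). In all 3 genes the nonunion libraries lay close together and far below preOP. Mepe, an osteocyte matrix protein, fell from 11, 16.1 and 7.52 CPM to 0.158, 0 and 0.0414 CPM (log2 fold change -6.96, adjusted p = 0.00019). Dmp1, another, fell from 26.4 to 30.2 CPM to 1.11, 5.86 and 1.9 CPM (log2 fold change -3.33, adjusted p = 0.018, and 0.054 and 0.063 without nonunion 1 and nonunion 3). Runx2, the transcription factor that starts the osteoblast lineage, was at 36.5, 7.55 and 45.6 CPM in nonunion and 50.2, 46.1 and 41.8 CPM in preOP and was not called (adjusted p = 0.43).

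Not every matrix gene of these lists fell. Col1a1, the main chain of type I collagen, was at 4230, 5250 and 5190 CPM in nonunion against 1720, 1920 and 2100 CPM in preOP, without overlap and without a call (log2 fold change 1.35, adjusted p = 0.079). It was called with DESeq2 (adjusted p = 0.0095), with limma-voom (0.026, and 0.0014 with library weights), in a fit of the 6 libraries alone (0.016) and without nonunion 2 and delayed 2 (0.03). Sparc, a collagen-binding matrix protein, was at 1990, 6350 and 3150 CPM against 1020 to 1050 CPM (log2 fold change 1.89, adjusted p = 0.014, and 0.053, 0.056 and 0.054 without preOP 1, 2 and 3). Osteopontin (Spp1), a bone matrix protein that macrophages also secrete, was at 15800 and 10100 CPM in nonunion 1 and 3, at 35.6 CPM in nonunion 2 and at 121, 101 and 108 CPM in preOP. Its rise was 6.29 ± 1.48 (adjusted p = 0.0094) and 7.03 without nonunion 2, but 3.68 and not called with limma-voom (adjusted p = 0.12). Nonunion 2 lay below every preOP library while the other nonunion libraries lay far above. Podoplanin (Pdpn), placed among osteocyte genes and also made by lymphatic endothelium and fibroblasts, rose from 4.44 to 5.36 CPM to 225, 70.3 and 147 CPM (log2 fold change 4.95, adjusted p = 0.00014).

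The 250 bases before the Bglap start hold ACCACA, a core letter string bound by RUNX factors. It was searched on both strands and was found in 11.5% of the 9860 promoters and in 3 of 10 of the osteoblast list (Bglap, Runx2 and Sparc), with 6 of 12 in the T and NK lymphocyte list and 3 of 6 in the megakaryocyte list. Of those 3 genes, 1 fell, 1 rose and 1 was not called. The Bglap window, chr2:176137319-176137568 on the minus strand in GRCr8, is shown with the match in capitals because osteocalcin had the largest fall of the list.
Bglap: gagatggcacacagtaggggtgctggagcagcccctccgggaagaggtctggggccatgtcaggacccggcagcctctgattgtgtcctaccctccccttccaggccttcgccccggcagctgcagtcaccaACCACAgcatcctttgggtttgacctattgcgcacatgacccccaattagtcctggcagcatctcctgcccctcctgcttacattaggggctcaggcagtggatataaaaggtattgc

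Osteoclast genes were divided as well, with 4 of 12 higher (3 or 4 with 1 library left out) and 2 lower (1 in each such fit but the one without nonunion 1). Atp6v0d2, a proton pump subunit needed for cell fusion, rose from 0.33 to 0.592 CPM to 43.1, 3.08 and 36.2 CPM (log2 fold change 5.92, adjusted p = 0.0011). Cathepsin K (Ctsk) rose by 2.60, and Tnfrsf11a, the receptor for the osteoclast-forming signal RANKL, rose by 3.03. Itgb3, the integrin chain that seals osteoclasts to bone and also a platelet integrin, fell from 293, 333 and 260 CPM to 17.2, 6.47 and 4.63 CPM (log2 fold change -4.96, adjusted p = 0.0061). Mmp9 fell by 3.86 (adjusted p = 0.025), a call lost when nonunion 2, nonunion 3 or any preOP library was left out (adjusted p up to 0.095). The acid phosphatase Acp5 was at 60.9, 42.2 and 39.8 CPM against 30.9 to 38.5 CPM and was not called (adjusted p = 0.53).

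No tested cartilage gene was called higher. Of 16 listed genes 9 could be tested, and Col10a1, Matn3, Snorc and Ucma had no entry in the data. Of the 9 tested genes 0 were called higher and 2 lower (1 without nonunion 2, nonunion 3 or preOP 3), with a median of -1.89. Of all genes tested 14.9% were lower. Sox9, the transcription factor that sets the chondrocyte fate, was at 2.97, 3.39 and 2.98 CPM in nonunion and at 2.91, 3.26 and 3.02 CPM in preOP (adjusted p = 0.98). Col11a2, a collagen chain of cartilage that bone cells also make, fell from 80.4, 100 and 59.3 CPM to 1.11, 3.08 and 1.2 CPM (log2 fold change -5.58, adjusted p = 0.00011).

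Genes of cell division were lower in the hematoma. Of 26 genes of the cell cycle and DNA replication 20 fell and 0 rose (median -1.64), and all 26 had every nonunion library below every preOP library. Nonunion 2 was the lowest, with a summed level of 414.5 CPM, where nonunion 1 and 3 had 1975 and 1889 CPM and preOP 5493 to 6719 CPM. Without nonunion 2 the count remained at 20 with a median of -1.01, and it fell to as few as 7 with another library left out, moving by over 1.5 times without nonunion 3 or any 1 of the preOP libraries. Mki67, the proliferation antigen, fell from 1820, 1720 and 2050 CPM to 183, 50.2 and 202 CPM (log2 fold change -3.68 ± 0.46, adjusted p = 0.00041). Cdc6, which loads the replicative helicase, fell from 97.3, 95.4 and 136 CPM to 24.5, 6.63 and 20.6 CPM (log2 fold change -2.65, adjusted p = 0.0013). Mcm7, a helicase subunit, fell from 198, 200 and 230 CPM to 90, 27.4 and 80.2 CPM (log2 fold change -1.66, adjusted p = 0.0091). Mcm2, its partner, fell by 1.46 (adjusted p = 0.03) and by 0.91 without nonunion 2 (adjusted p = 0.054). Its call was also lost without nonunion 3 or any preOP library (adjusted p up to 0.099). Red marrow is rich in dividing precursors, whose genes fell in the same contrast (erythroid median -8.20), and their part in this fall was not tested.

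E2F factors drive replication genes through sites such as TTTCGCGC. These 8 letters, searched on both strands, stood in 0.477% of the 9860 promoters and in 4 of 18 of the cell cycle list (Cdk1, Mcm2, Mcm6 and Mcm7), and in 1 of 9 of the heme synthesis list. The Mcm2 window, chr4:122918095-122918344 on the minus strand in GRCr8, holds 2 overlapping copies in opposite orientation, in capitals.
Mcm2: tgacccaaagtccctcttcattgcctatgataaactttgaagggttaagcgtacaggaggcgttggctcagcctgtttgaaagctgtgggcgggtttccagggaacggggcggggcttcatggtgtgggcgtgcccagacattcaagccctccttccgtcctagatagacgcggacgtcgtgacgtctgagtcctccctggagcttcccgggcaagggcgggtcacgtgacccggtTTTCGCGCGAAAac

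Most genes of the 2 macrophage lists were higher in the hematoma. Of 16 macrophage genes 9 rose (8 or 9 with 1 library left out) and 1 fell, with a median of 1.57. Of 13 genes of lipid-associated macrophages 10 rose (10 or 11) and 0 fell, with a median of 3.56. Gpnmb, a lysosomal membrane glycoprotein of such cells, rose from 148, 120 and 74.3 CPM to 4910, 1260 and 2970 CPM (log2 fold change 4.74 ± 0.64, adjusted p = 0.0006). Apolipoprotein E (Apoe) rose from 49.6, 56.6 and 55.6 CPM to 1660, 1400 and 2200 CPM (log2 fold change 5.02 ± 0.61, adjusted p = 0.00037). The lipid receptor Trem2 rose from 2.22 to 2.59 CPM to 138, 30.1 and 134 CPM (log2 fold change 5.35, adjusted p = 0.00069). For Gpnmb and Trem2 nonunion 2 was the lowest nonunion library, and for all 3 genes it was above preOP. The folate receptor gene Folr2, a marker of tissue-resident macrophages, rose from 8.78, 7.31 and 4.19 CPM to 174, 122 and 174 CPM (log2 fold change 4.53 ± 0.42, adjusted p = 0.00011). Csf1r, the receptor for the macrophage growth factor, rose by 1.98, and its ligand Csf1 by 1.61.

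Not every macrophage gene rose. Cd5l, a secreted protein of the macrophages of marrow, spleen and liver, fell from 109, 95.5 and 55.8 CPM to 0.712, 2.47 and 0.207 CPM (log2 fold change -6.50, adjusted p = 0.0019). The complement gene C1qa was at 67.8, 338 and 132 CPM against 186, 189 and 143 CPM, and Cd163, the hemoglobin-haptoglobin scavenger receptor, was at 80.2, 354 and 75.2 CPM against 157, 120 and 77.5 CPM. Neither was called (adjusted p = 0.94 and 0.55), and nonunion 2 held the highest level of both.

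Lysosomal genes rose in 14 of 21 cases with none lower (median 1.18, 9 to 17 called with 1 library left out and 9 without preOP 3). Cathepsin L (Ctsl) rose from 127, 102 and 61.6 CPM to 2500, 850 and 1910 CPM (log2 fold change 4.18 ± 0.55, adjusted p = 0.00051). Cathepsin D (Ctsd) rose by 2.74, progranulin (Grn) by 1.97 and cathepsin B (Ctsb) by 1.83. Among 15 genes that handle heme and iron 3 rose and 4 fell. Heme oxygenase 1 (Hmox1), which breaks heme down, rose from 464, 405 and 288 CPM to 1300, 2260 and 2000 CPM (log2 fold change 2.26, adjusted p = 0.0049). Ncoa4, which sends ferritin to the lysosome and is abundant in red cell precursors, fell from 695, 631 and 780 CPM to 189, 240 and 185 CPM (log2 fold change -1.78, adjusted p = 0.00064). The ferritin chains Fth1 and Ftl1 were above preOP in every nonunion library and were not called (adjusted p = 0.097 and 0.19), but both were called in a fit of the 6 libraries alone (0.03 and 0.049) and with library weights (0.00027 and 0.0065).

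**Figure D4:**
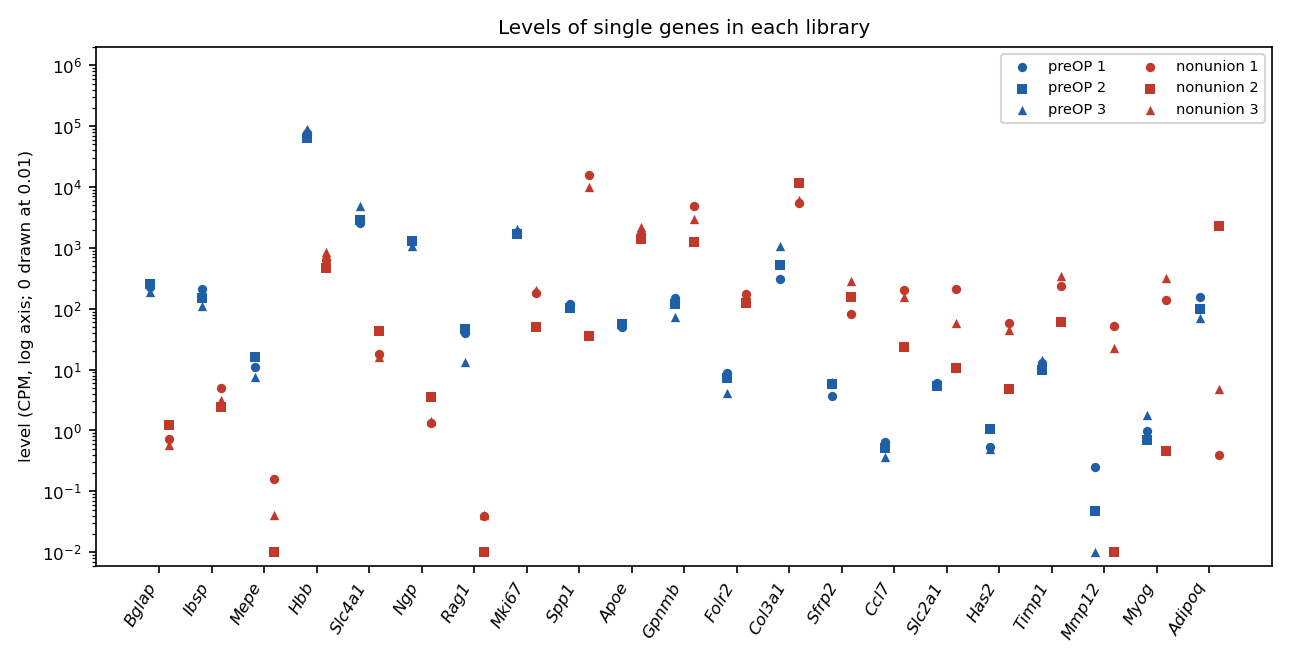
Level of 21 named genes in each library (CPM on a log axis, with 0 drawn at 0.01). Blue symbols are preOP 1 to 3 and red symbols nonunion 1 to 3. Nonunion 2 (red squares) lies apart from nonunion 1 and 3 for Spp1, Mmp12, Myog and Adipoq, and with them for Bglap, Hbb, Apoe and Folr2.

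Fibrous matrix genes were higher in the hematoma. Of 15 fibroblast genes 10 rose (8 to 10 with 1 library left out) and 0 fell, with a median of 2.20 and 2.17 without nonunion 2. Type III collagen (Col3a1), the collagen of early scar, rose from 307, 516 and 1080 CPM to 5510, 11500 and 6130 CPM (log2 fold change 3.61 ± 0.63, adjusted p = 0.0022). Fibronectin (Fn1) rose from 429, 469 and 420 CPM to 6250, 1730 and 2040 CPM (log2 fold change 2.93 ± 0.55, adjusted p = 0.0032). Pdgfra, the PDGF receptor of fibroblasts, rose from 24.8 to 39.1 CPM to 166, 197 and 212 CPM (log2 fold change 2.51 ± 0.29, adjusted p = 0.00029). Periostin (Postn) was not called, at 284, 1020 and 384 CPM against 206, 402 and 607 CPM (adjusted p = 0.6).

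Genes of hyaluronan and proteoglycans rose in 10 of 17 cases (9 to 11) and fell in 1, with a median of 2.21. Hyaluronan synthase 2 (Has2) rose from 0.543, 1.04 and 0.493 CPM to 58.8, 4.78 and 45.2 CPM (log2 fold change 5.69 ± 0.91, adjusted p = 0.0014). Versican (Vcan), which binds hyaluronan, rose by 3.66 and Tnfaip6, which cross-links it during inflammation, by 3.96. Biglycan (Bgn) rose from 135 to 149 CPM to 588, 750 and 680 CPM with little spread in either group (log2 fold change 2.24 ± 0.30, adjusted p = 0.00057). Fibromodulin (Fmod), a collagen-binding proteoglycan, fell by 2.63.

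Genes of contractile wall cells rose in 5 of 12 cases (4 to 7 with 1 library left out) and fell in 0. Smooth muscle actin (Acta2), also the actin of myofibroblasts, rose from 26.1, 21.3 and 28.7 CPM to 134, 280 and 289 CPM (log2 fold change 3.21 ± 0.44, adjusted p = 0.00063). Transgelin (Tagln) rose by 2.51 and Mcam by 2.60. Endothelial genes rose in 5 of 15 cases and fell in 1, and the counts were 3 to 9 and 0 to 2 with 1 library left out (9 higher without nonunion 1, 3 without preOP 3). Endoglin (Eng) rose from 47.8 to 54 CPM to 189, 281 and 164 CPM (log2 fold change 2.08 ± 0.30, adjusted p = 0.00077). Stab2, a scavenger receptor of marrow sinusoids, fell from 43.7, 37.1 and 28.1 CPM to 0.712, 11.3 and 0.62 CPM (log2 fold change -3.20, adjusted p = 0.045). Without nonunion 2 its fall was -5.60, and it was not called without any 1 of the other 5 libraries (adjusted p up to 0.12). Von Willebrand factor (Vwf) was below preOP in every nonunion library, without a call, and was called when nonunion 2 was left out (log2 fold change -1.32, adjusted p = 0.15, and -1.95, adjusted p = 0.045).

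Of 34 cytokine and chemokine genes 14 rose and 2 fell (median 1.55). With 1 library left out 8 to 18 were called higher, and the count moved by over 1.5 times without preOP 2 or preOP 3. The lower count was 0 to 2 and dropped without nonunion 3 or any 1 preOP library. The monocyte-attracting chemokine Ccl7 rose from 0.641, 0.519 and 0.37 CPM to 207, 23.7 and 155 CPM (log2 fold change 7.95 ± 0.92, adjusted p = 0.00027). Ccl20, which attracts CCR6-bearing lymphocytes, rose by 7.10 from 0.0987, 0.142 and 0 CPM. Interleukin 6 (Il6) rose from at most 0.0987 CPM to 5.46, 0.154 and 12.7 CPM (log2 fold change 6.39, adjusted p = 0.0056). The Il6 value of nonunion 2 is below 0.4624 CPM, the worth of 3 reads there, so this rise rests on nonunion 1 and 3. Nonunion 2 was the lowest nonunion library for all 3 genes. Il33, an alarm cytokine of stromal nuclei, rose from 30, 21 and 20 CPM to 107, 277 and 200 CPM (log2 fold change 3.04 ± 0.35, adjusted p = 0.00028). The acute cytokines Il1b and Tnf were not called (adjusted p = 0.89 and 0.19), at 42.3, 1.54 and 14.2 CPM against 18.7 to 27.4 CPM for Il1b. Il1rn, the interleukin 1 receptor antagonist, was at 552, 8.79 and 202 CPM against 41.5 to 59.2 CPM, uncalled with all libraries and called without nonunion 2 (log2 fold change 2.38, adjusted p = 0.089, and 3.10, adjusted p = 0.0022).

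Matrix-degrading enzymes and their inhibitors rose in 10 of 19 cases (8 to 11) and fell in 3 (1 without nonunion 2, nonunion 3, preOP 1 or preOP 2), with a median of 2.18. Timp1, the secreted inhibitor, rose from 12.8, 10 and 14.6 CPM to 237, 59.7 and 344 CPM (log2 fold change 4.10 ± 0.57, adjusted p = 0.00065). Mmp14, the membrane collagenase, rose from 18.3, 31 and 35.6 CPM to 193, 290 and 137 CPM (log2 fold change 2.87, adjusted p = 0.001). Mmp12, the macrophage elastase, was at 51.1, 0 and 22.3 CPM in nonunion 1 to 3 and at 0.247, 0.0472 and 0 CPM in preOP. Its rise of 7.83 (adjusted p = 0.0045, 8.54 without nonunion 2) rests on nonunion 1 and 3, and nonunion 2 had no read. With limma-voom it was 6.74 and not called (adjusted p = 0.077). Mmp13, the collagenase of hypertrophic cartilage and bone, went down from 15.9, 24.5 and 14.2 CPM to 3.92, 0.771 and 3.68 CPM (log2 fold change -2.64, adjusted p = 0.014, and 0.064 without preOP 2). The neutrophil collagenase Mmp8 fell by 5.80 (adjusted p = 0.021), with adjusted p of 0.057 without nonunion 2, 0.076 without nonunion 3 and 0.05 without preOP 1.

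The AP-1 letter string TGAGTCA, searched on both strands, stood in 3.66% of the 9860 promoters and in 4 of 13 of the protease list (Mmp3, Mmp7, Mmp12 and Mmp13). The NRF2 list had 4 of 14 and the adipocyte list 2 of 8. Among those 4, Mmp3 and Mmp12 rose, Mmp13 fell and Mmp7 was not called, and the rise of Mmp3 (log2 fold change 2.80) was not called without any 1 library other than nonunion 2. The Mmp12 window, chr8:12866402-12866651 on the plus strand in GRCr8, is shown with the match in capitals as the promoter of the protease with the largest rise.
Mmp12: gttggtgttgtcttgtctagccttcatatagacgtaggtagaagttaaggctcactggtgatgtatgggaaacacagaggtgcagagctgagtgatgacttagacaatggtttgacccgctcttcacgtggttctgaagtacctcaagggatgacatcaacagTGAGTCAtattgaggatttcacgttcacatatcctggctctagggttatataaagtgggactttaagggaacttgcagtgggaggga

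Of 25 genes of clot breakdown, clotting and complement 9 rose (8 to 10) and 4 fell (2 to 4, and 2 without nonunion 3, preOP 1 or preOP 2). Urokinase (Plau), which activates plasmin, rose from 10.8, 13.3 and 12.9 CPM to 612, 81.5 and 328 CPM (log2 fold change 4.79 ± 0.60, adjusted p = 0.00043). Tissue factor (F3), which starts clotting, rose from 3.59 to 5.18 CPM to 35.3, 125 and 43.4 CPM (log2 fold change 3.98 ± 0.52, adjusted p = 0.0005). Complement factor B (Cfb) rose by 5.71, from 4.15 to 4.87 CPM to 19.9, 584 and 103 CPM, with the highest level in nonunion 2 (3.93 without it). Complement C3 fell by 2.92 (adjusted p = 0.026), a call lost without any 1 library other than preOP 3 (adjusted p up to 0.1).

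Genes of hypoxia and glycolysis depended on nonunion 2. With all libraries 10 of 30 rose and 2 fell (median 1.40), and without nonunion 2 the counts were 22 and 1 (median 1.90). Leaving out another library gave as few as 5 higher, and the count moved by over 1.5 times without nonunion 1, preOP 2 or preOP 3 as well. The summed level of the list was 21320 and 14000 CPM in nonunion 1 and 3, 4390 CPM in nonunion 2 and 4752 to 7036 CPM in preOP. The glucose transporter Slc2a1 rose from 6.07, 5.43 and 5.86 CPM to 215, 10.8 and 58 CPM (log2 fold change 4.03 ± 0.92, adjusted p = 0.0081). Adrenomedullin (Adm), a vessel-dilating peptide induced by low oxygen, rose from 2.22, 1.79 and 2.9 CPM to 41.8, 27.3 and 31.1 CPM (log2 fold change 3.86 ± 0.48, adjusted p = 0.00039). Bnip3, a mitochondrial clearance protein, rose by 2.07. Lactate dehydrogenase A (Ldha) was at 2220, 428 and 1490 CPM against 591 to 829 CPM and was called when nonunion 2 was left out but not with all libraries (log2 fold change 0.92, adjusted p = 0.2, and 1.50, adjusted p = 0.0081). Of 28 genes of the respiratory chain 0 were called with edgeR in either direction, with all libraries or without nonunion 2, and the median was -0.09. Atp5f1b, a subunit of ATP synthase, was at 1100, 826 and 1190 CPM against 1190 to 1310 CPM (log2 fold change -0.25 ± 0.55, adjusted p = 0.78).

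HIF factors bind the letters ACGTG, which stood in 22.0% of the 9860 promoters on either strand and in 12 of 27 of the hypoxia list. The share was higher in lists not chosen for hypoxia, with 4 of 7 for arginine and polyamines, 5 of 10 for lipid-associated macrophages and 7 of 14 for heat shock and unfolded protein genes. The window before Slc2a1, chr5:138002272-138002521 on the plus strand in GRCr8, is shown because this gene had the largest rise of the list.
Slc2a1: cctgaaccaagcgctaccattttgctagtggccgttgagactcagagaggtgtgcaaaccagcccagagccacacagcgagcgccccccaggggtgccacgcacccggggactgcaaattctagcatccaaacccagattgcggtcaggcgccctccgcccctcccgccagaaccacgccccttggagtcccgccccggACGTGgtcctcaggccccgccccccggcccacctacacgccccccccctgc

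Skeletal muscle genes were present in both groups and none of 18 was called with edgeR (median -1.77). For 9 of the 18, every nonunion library was below every preOP library, against 28.0% of all genes tested. The member Myh4 was called lower in limma-voom with library weights (log2 fold change -3.48, adjusted p = 0.015). The summed level of the muscle list was 7865, 1185 and 3874 CPM in nonunion and 12770, 16600 and 7202 CPM in preOP. Of 10 genes of regenerating muscle 5 rose and 0 fell (median 3.62), with 7 called without nonunion 2 and 0 to 5 with another library left out (0 without preOP 2, and fewer by over 1.5 times also without nonunion 3, preOP 1 or preOP 3). Myogenin (Myog), which drives myoblasts to fuse, was at 139 and 318 CPM in nonunion 1 and 3, at 0.462 CPM in nonunion 2 and at 0.708 to 1.79 CPM in preOP. Its rise was 7.05 (adjusted p = 0.013) and 7.80 without nonunion 2, with adjusted p of 0.051 without preOP 1, 0.053 without preOP 2 and 0.13 with limma-voom. The cardiac and embryonic troponin Tnnt2 had the largest rise of all genes under the rule for named genes, from 0.0493, 0.0944 and 0.0616 CPM to 113, 0.462 and 247 CPM (log2 fold change 10.64 ± 1.94, adjusted p = 0.0027, but 9.11 and adjusted p = 0.069 with limma-voom). Nonunion 2 was again far below the other nonunion libraries.

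Adipocyte genes reversed with 1 library. With all libraries 1 of 12 rose and 0 fell (median 2.63). Without nonunion 2, 0 rose and 8 fell (median -4.26). Without nonunion 1, 4 rose, without nonunion 3, 2 rose, and without any 1 preOP library 0 rose, with 0 lower in these 5 fits. Adiponectin (Adipoq), the main secreted protein of fat cells, was at 0.395 and 4.84 CPM in nonunion 1 and 3 and at 2310 CPM in nonunion 2, against 157, 98.6 and 69.8 CPM in preOP. Its log2 fold change was 2.83 (adjusted p = 0.3), and -5.21 without nonunion 2 (adjusted p = 0.0096). Leptin (Lep), the droplet protein Plin1 and complement factor D (Cfd) changed sign in the same way, from 4.51, 3.61 and 2.95 to -5.07, -3.87 and -2.15. The 1 gene called with all libraries, the fatty acid carrier Fabp4, had a log2 fold change of 2.72 (adjusted p = 0.048), 0.95 without nonunion 2 (adjusted p = 0.28), and adjusted p of 0.08 to 0.15 without a preOP library. S100b, a calcium-binding protein of both fat cells and Schwann cells, was at 671 CPM in nonunion 2 and at 0.593 and 1.9 CPM in nonunion 1 and 3. Gfap, an intermediate filament of non-myelinating Schwann cells, fell by 7.77, from 37.7, 52.2 and 83.6 CPM to 0.277, 0.154 and 0.29 CPM (adjusted p = 9.5e-05). It was the 1 called gene of 8 tested in the Schwann cell and nerve list, where 0 rose and 7 were not called (median 0.08). Without nonunion 2, 3 of the 8 fell (median -1.45).

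**Figure D5:**
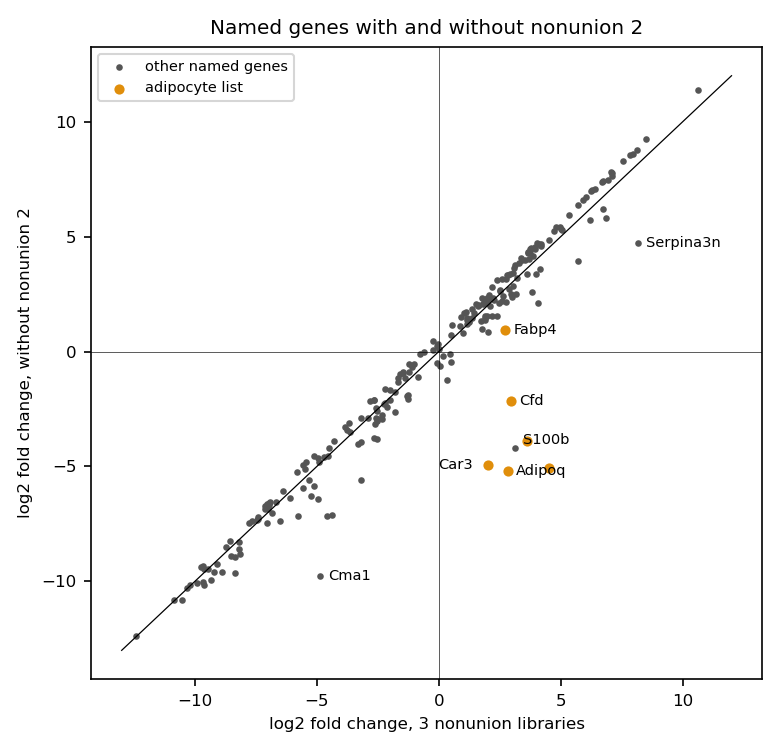
Log2 fold change of the named genes with all 3 nonunion libraries (x axis) and without nonunion 2 (y axis). Each point is a gene, orange points belong to the adipocyte list, and the line marks equal values. Adipoq moves from 2.83 to -5.21, Cma1 from -4.87 to -9.76 and Serpina3n from 8.16 to 4.74, and most other genes stay near the line.

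Genes of signals that steer bone formation differed in single members. Of 29 Wnt genes 4 rose (4 to 6 with 1 library left out) and 2 fell (4 without nonunion 2 and 1 without nonunion 3 or preOP 2), with a median of 0.25. Of all genes tested 13.5% were higher and 14.9% lower, so the Wnt counts with all libraries lay near or below that background. The secreted Wnt binder Sfrp2 rose from 3.65, 5.71 and 6.35 CPM to 83.5, 154 and 285 CPM (log2 fold change 5.05 ± 0.60, adjusted p = 0.00032). Another, Frzb, rose by 4.06, and by 2.10 without nonunion 2, but was not called with limma-voom (log2 fold change 2.59, adjusted p = 0.07). The receptor Fzd2 rose from 0.345 to 0.74 CPM to 6.68, 4.62 and 7.28 CPM (log2 fold change 3.68, adjusted p = 0.0012). Nkd2, an inhibitor inside the cell that Wnt signals induce, fell from 28.4 to 37.2 CPM to 5.73, 8.79 and 6.37 CPM (log2 fold change -2.25, adjusted p = 0.00049).

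Of 33 genes of BMP and TGF-beta signalling 10 rose and 3 fell (median 0.52). With 1 library left out these counts were 4 to 10 and 0 to 7, and without nonunion 2 they were 10 and 7. The higher count moved by over 1.5 times without nonunion 3 or any 1 preOP library, and the lower count without any 1 library other than preOP 3. Tgfbi, a matrix protein induced by TGF-beta, rose from 128 to 136 CPM to 775, 311 and 545 CPM (log2 fold change 2.05, adjusted p = 0.0042). The ligand genes Bmp6 and Bmp8a fell (log2 fold change -2.13 and -2.53), and the calls were lost without nonunion 1, nonunion 3, preOP 1 or preOP 2, for Bmp8a also without preOP 3 (adjusted p up to 0.081 and 0.17). Bmp2 and Bmp4 were not called with all libraries. Of 31 growth factors and receptors 10 rose (6 to 10, fewest without preOP 2 or preOP 3) and 3 fell (0 to 3, with a lower count without any 1 library other than nonunion 2). The lymphatic growth factor Vegfd rose from 0.0987, 0.33 and 0.185 CPM to 7.91, 26.7 and 12.1 CPM (log2 fold change 6.18 ± 0.73, adjusted p = 0.00031). Igfbp3, which carries insulin-like growth factors, rose from 21.7 to 27.2 CPM to 91.4, 213 and 101 CPM (log2 fold change 2.46, adjusted p = 0.0015). The receptor Fgfr1 rose by 1.90. Fgfr2 and Fgfr3 fell by 1.81 and 2.33 (adjusted p = 0.03 for both), and the calls were lost without nonunion 1, nonunion 3, preOP 2 or preOP 3, for Fgfr2 also without preOP 1 (adjusted p up to 0.1).

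Stress and interferon genes were called in part of each list, where 13.5% of all genes tested were higher and 14.9% lower. Of 16 NRF2 genes 4 rose and 2 fell, and the counts were 4 and 2 whichever of the 6 libraries was left out. Metallothionein 2 (Mt2A) rose from 6.37 to 13.1 CPM to 126, 56.4 and 142 CPM (log2 fold change 3.53, adjusted p = 0.0011), and Gclm, a subunit of the enzyme that starts glutathione synthesis, fell from 100 to 130 CPM to 18.7, 30.5 and 23 CPM (log2 fold change -2.22, adjusted p = 0.00014). Of 17 heat shock and unfolded protein genes 4 rose, and 8 without nonunion 2, with as few as 2 where nonunion 3, preOP 2 or preOP 3 was left out. Atf3, a stress-induced transcription factor, rose by 3.41. Of 18 interferon genes 2 fell: Rsad2, the antiviral protein viperin, from 635, 647 and 944 CPM to 2.73, 7.86 and 11.5 CPM (log2 fold change -6.66 ± 0.78, adjusted p = 0.0003), and its chromosomal neighbour Cmpk2 by 3.65. The other 16, among them Isg15 and Irf7, were not called with all libraries.

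Arginase 1 (Arg1), which turns arginine into ornithine in alternatively activated macrophages, rose from 0.987, 0.897 and 0.678 CPM to 220, 8.32 and 49.1 CPM (log2 fold change 6.75 ± 1.23, adjusted p = 0.0027). It was 1 of 2 risen genes among 12 for arginine and polyamines, where 2 others fell, and without nonunion 2 these counts were 4 and 0. They were 1 to 4 and 0 to 1 over the fits without 1 library, moving upward for nonunion 2 and downward for nonunion 3, preOP 2 and preOP 3 in the first count and downward in all 6 in the other. Of 17 genes for prostaglandins and leukotrienes 3 rose (2 to 5, and 5 without nonunion 2) and 4 fell (1 or 2 without nonunion 1, nonunion 3, preOP 1 or preOP 2). The prostaglandin E synthase Ptges rose from 0.247, 0.472 and 0.616 CPM to 3.16, 14.2 and 6.54 CPM (log2 fold change 4.14, adjusted p = 0.0013). Hpgd, the enzyme that breaks prostaglandins down, rose by 4.17. Alox15, a lipoxygenase, fell from 178, 158 and 288 CPM to 11.2, 1.85 and 4.76 CPM (log2 fold change -5.10, adjusted p = 0.011, and 0.051 without nonunion 3). The inducible cyclooxygenase Ptgs2 was at 12.3, 0.462 and 0.745 CPM against 4, 1.65 and 0.801 CPM and was not called (adjusted p = 0.57).

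Outside these lists, the 12 largest rises under the rule for named genes included Msln and Steap1. Msln is the mesothelin of mesothelial and some stromal cells, and Steap1 is a membrane protein of the STEAP family. Msln rose from 0.0987, 0.142 and 0.308 CPM to 29.2, 10.2 and 35.6 CPM (log2 fold change 7.10 ± 0.95, adjusted p = 0.00055). Steap1 rose from 0.0987, 0.189 and 0.247 CPM to 26.3, 9.4 and 30.6 CPM (log2 fold change 6.94 ± 0.62, adjusted p = 9.6e-05). The protease inhibitor Serpina3n was at 20.6, 927 and 34.3 CPM against 0.566 to 1.54 CPM, a rise of 8.16 with all libraries and 4.74 without nonunion 2. Asgr2, a galactose-binding lectin, rose by 6.74 and was also highest in nonunion 2, at 76.8 CPM. The large falls outside the lists included the ubiquitin ligase gene Trim58 of maturing red cells, which had 3 reads over the nonunion libraries, a ratio of 897 with a 95% counting interval of 307 to 4350.

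The nonunion hematoma was also compared directly with the hematoma of the delayed model, where the femur libraries drop out. EdgeR called 0 of 12846 genes, and 1294 (10.1%) had an unadjusted p below 0.05. DESeq2 called 321, limma-voom 0 and limma-voom with library weights 554. For the genes above, the nonunion minus delayed log2 values were -0.68 for Bglap, -2.82 for Hbb, -0.02 for Spp1, 0.07 for Gpnmb, -0.11 for Col3a1, -0.06 for Mki67 and -1.69 for Slc2a1. As edgeR called 0 genes, this covers every difference from femur described here, and it does not show that the nonunion and delayed hematomas are alike. Without nonunion 2 and delayed 2 edgeR called 332 genes. With 1 library left out it called 113 without nonunion 1, 73 without delayed 2, and 0 or 1 without any other nonunion or delayed library.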

How the data were processed

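RNA was sequenced from 12 libraries in 4 groups of 3, of which the nonunion and preOP groups are compared. Per the labels' protocols, RNA was taken with Trizol from frozen tissue and made into Illumina TruSeq libraries. Per the submitters' processing notes the authors used bcl2fastq 1.8.4, FastQC, Trimmomatic and Salmon with build rn6, and other versions are not stated. The deposited estimated counts are Salmon's read numbers per RefSeq transcript, not scaled, per the file headers. The deposited TPM values (the authors' length-corrected levels) were not used. The deposited effective lengths, in bases, entered 1 alternative.

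For the tests, these estimates were rounded to whole reads and added up per RefSeq symbol, which matched 17367 of 18321 transcripts to 16425 symbols, and the 954 unmatched transcripts were kept, giving 17379 features. No 2 libraries held identical values. All 12 libraries were fitted together in edgeR 4.0.16 (R 4.3.3) after TMM scaling and filterByExpr, with 12846 genes and 8 residual degrees of freedom. Quasi-likelihood F-tests were two-sided, with Benjamini-Hochberg adjustment over all genes and calls below 0.05. The SE of a log2 fold change is its size divided by the square root of F. The script was tested on simulated data. A gene without reads in a group is bounded at 3 reads per library, and ratios on 1 to 3 reads carry exact binomial 95% intervals. Both cover counting error only. Reads are not strand-resolved in the files, so overlapping and antisense genes cannot be told apart.

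The members and the 41 gene lists (696 of 752 entries in the files) were chosen with earlier results of these data known. Named genes are the 12 largest called changes each way without overlap between groups and with at least 5 CPM in the higher group, and up to 4 called members of each list, or 2 abundant uncalled ones where fewer than 2 were called. The rule gave 168 genes, and 70 more were chosen after their values were seen; a few of these are counted but not reported here. Promoter letters come from RefSeq (GRCr8) and are not tied to the build of the files. Alternatives were other libraries in the fit, DESeq2 1.42.0, its size factors, limma-voom (limma 3.58.1) with and without library weights, a minimum fold of 2, no filter, a replicate block, no ribosomal RNA, effective lengths as offsets, a robust spread and leaving out each library.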

Additional observations from a re-analysis of the deposited data

How the results depend on the processing

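The number of genes called for nonunion against preOP (3648, of which 1736 higher and 1912 lower) stayed within 1.5 times under 10 of 13 alternatives in both directions. With library weights in limma-voom it was 7516 (3297 higher, 4219 lower), with a minimum fold of 2 it was 1340 (595 higher, 745 lower), and without nonunion 2 and delayed 2 the higher genes numbered 2869. With each of the 6 libraries left out in turn the count ran from 2334 to 4221, with 1084 to 2274 higher and 1180 to 1947 lower, and a fit with fewer libraries has fewer residual degrees of freedom. For nonunion against delayed the count of 0 became 321 with DESeq2, 554 with library weights and 332 without nonunion 2 and delayed 2, and ran from 0 to 113 with 1 library left out. The cause of these shifts was not tested.

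For 8 genes that were not called with all libraries, a call with the opposite sign appeared once nonunion 2 was left out or given less weight. With library weights the log2 fold changes were -4.39 (Car3), -1.85 (Cfd), -3.82 (S100b), -0.63 (C1qa), -1.21 (Cd36), -5.02 (Adipoq), -4.02 (Plin1) and -4.47 (Lep). Without nonunion 2 and delayed 2 they were -4.94 (Car3), -2.15 (Cfd), -4.21 (S100b), -1.22 (Cd36), -5.21 (Adipoq), -3.87 (Plin1) and -5.07 (Lep). Leaving out 1 library at a time gave -2.15 to 3.58 for Cfd, -4.21 to 3.75 for S100b, -5.21 to 3.47 for Adipoq, -3.87 to 4.25 for Plin1 and -5.07 to 5.15 for Lep. Uncalled genes near 0 also crossed it without gaining a call, such as Postn (-0.12 to 0.88), Atp5f1b (-0.28 to 0.05), Isg15 (-1.24 to 1.15) and Ptgs2 (-1.63 to 2.01). Of 200 chosen genes that were called, 144 kept their call in all 6 such fits.

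The labels do not say that the replicate numbers pair the libraries, and they were not used to pair them. Same-numbered nonunion and preOP libraries correlated at 0.027, -0.011 and 0.057 in their deviations from the group means. Differently numbered ones correlated at -0.061 to 0.067. With 3 libraries per group and different tissues, such values cannot show whether any libraries are paired. With a replicate block the count was 3385, and 10 of 238 chosen genes lost their call. Depth limits nonunion 2, where 3 reads are worth 0.4624 CPM, against 0.1186 to 0.1849 CPM in the other 5 libraries.

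Other settings ended the calls of these genes named above. With limma-voom the adjusted p was 0.055 for Cd34, 0.06 for Cd8a, 0.091 for Fabp4 and 0.095 for Mmp3, beside Spp1, Tnnt2, Myog, Mmp12, Frzb and Chrng given above. In a fit of the 6 libraries alone it was 0.079 for Cma1, 0.072 for Stab2, 0.068 for Fabp4, 0.058 for Cxcl12, 0.057 for Fgfr2, 0.085 for Mcm2 and 0.095 for Bmp8a. Without the normal libraries it was 0.05 for Cma1, 0.074 for Stab2, 0.051 for Cxcl12, 0.055 for Fgfr2, 0.081 for Mcm2, 0.083 for Bmp8a and 0.061 for Mmp3. Stab2 and Bmp8a also lost their call with DESeq2 size factors (0.052 and 0.058) and without ribosomal RNA (0.052 and 0.06), Bmp8a without the filter on low counts (0.054), and Fabp4 and Bmp8a with the replicate block (0.076 and 0.09). A minimum fold of 2, a stricter question, ended the calls of Dmp1, Mmp9, Cd34, Cma1, Stab2, Fabp4, Cxcl12, Csf1, Ctsb, Fgfr1, Sparc, Mmp13, C3, Fgfr2, Fgfr3, Mcm2, Mcm7, Bmp6, Bmp8a and Mmp3. Some uncalled genes gained a call: with library weights Cd3e, Vwf, Ldha, Il1rn, Bmp2 and Bmp4, with limma-voom Bmp4, with DESeq2 Fth1 and Il1rn, and without nonunion 2 and delayed 2 Cd3e, Vwf, Ldha, Il1rn, Tnf, Fth1 and Bmp4.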

Other observations

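Several genes with large differences belong to none of the groups above. Psca, a surface antigen of some epithelial cells, was at 48.5 and 33.7 CPM in nonunion 1 and 3, at 0.154 CPM in nonunion 2 and at 0.0472 to 0.0987 CPM in preOP (log2 fold change 8.51, adjusted p = 0.0029). The nonunion 2 value is below the 0.4624 CPM of 3 reads, so this rise rests on nonunion 1 and 3. Tm4sf19, a membrane protein of multinucleated osteoclasts and macrophages, was at 15.6, 0.925 and 2.81 CPM in nonunion and had 1 read in preOP, a ratio of 483 with a 95% counting interval of 86.3 to 19100. Serpinb11, a protease inhibitor family member, was at 7.25, 8.02 and 6.35 CPM in preOP with no nonunion read, which makes it at least 30.7-fold lower (adjusted p = 0.0029).

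The fetal subunit of the muscle acetylcholine receptor, Chrng, was at 23.2 and 69 CPM in nonunion 1 and 3, at 0.154 CPM in nonunion 2 and at 0.0493 to 0.308 CPM in preOP (log2 fold change 7.54, adjusted p = 0.015, and 0.057 without preOP 1, 0.056 without preOP 2, 0.05 without preOP 3 and 0.075 with limma-voom). Actc1, the actin of fetal muscle, showed the same order at 335, 0.308 and 1130 CPM against 1.27 to 13.1 CPM and was not called with all libraries (adjusted p = 0.05), but was with DESeq2 (0.0016) and without nonunion 2 (log2 fold change 6.98, adjusted p = 0.011). Nonunion 2 lay inside the preOP range for Chrng and below it for Actc1.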
